A study of Mus musculus with 4 samples.

Results

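DNA replication genes are the 36 genes listed for the helicase, the licensing and firing of origins, the replicative polymerases, the sliding clamp and its loader, the joining of Okazaki fragments, the supply of deoxynucleotides and the rebuilding of chromatin behind the fork. They were taken by symbol from a table of 34866 genes, of which 14067 were tested. All 36 members were in the table and all 36 passed the filter on low counts, so none was left out. RNA came from the gastric mucosa of the corpus, the acid-secreting main part of the mouse stomach, in 2 wild-type libraries (Muc6 +/+) and 2 knockout libraries (Muc6 -/-). Muc6 encodes a secreted mucin of the gastric glands. The stated purpose of the study was to relate its loss to gastric carcinogenesis. The labels give no age, sex, strain or treatment, do not say which part of Muc6 was removed, and do not say whether the libraries of each genotype came from different animals, so p-values measure only the spread between these libraries, which may be technical.

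DNA is copied once per cell cycle. Origins are licensed in G1 phase when the origin recognition complex (ORC), Cdc6 and Cdt1 load the ring-shaped MCM2-7 helicase, and they fire in S phase when Cdc45 and the GINS complex join the helicase. Transcription of many of these genes is driven by E2F factors as cells leave G1, so in a tissue their mRNA is abundant mainly in dividing cells. In the corpus, dividing cells sit in the isthmus of the gland, between the surface pit cells above and the parietal and chief cells below.

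The libraries held 20327745 to 27946423 counts. Muc6 was at 345 and 313 CPM (counts scaled to the effective library size) in wild type 1 and 2 and at 0 and 0.413 CPM in knockout 1 and 2, so the targeted gene followed the labels. Knockout 1 stood apart from knockout 2 in chief and parietal cell markers. Its 8 chief cell markers summed to 2536 CPM, against 108659 CPM in knockout 2 and 97122 and 211935 CPM in libraries 1 and 2 of wild-type mucosa. The 5 antral gland markers summed to 434 and 530 CPM in wild-type mucosa and 211 and 137 CPM in knockout. Muc6, the targeted gene, is among them and held 345 and 313 CPM of the wild-type sums, so the lower sums in knockout do not measure antral RNA. The other antral genes differed in direction. Nkx6-3, Pdx1 and Gast were at 122, 59.0 and 9.77 CPM in knockout 1 and at most at 0.454, 2.52 and 0.0403 CPM in any other library. Sst was lowest in knockout 1, at 20.7 CPM, with 133 CPM in knockout 2 and 88.5 and 217 CPM in wild type. The 12 parietal cell markers summed to 18377 and 17823 CPM in wild-type mucosa and to 958 and 5956 CPM in knockout. The 4 Y-linked genes summed to 136 and 121 CPM in wild-type mucosa and 1.44 and 2.44 CPM in knockout, so genotype and Y-linked expression cannot be told apart for any result here. The 10 fibroblast and muscle markers summed to 303 and 360 CPM in the libraries numbered 1 of both genotypes and to 2097 and 1911 CPM in those numbered 2.

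The promoters of 3 helicase subunits, Mcm5, Mcm6 and Mcm7, are shown because their transcripts were higher together in knockout and their promoters carry the letters bound by E2F factors, and that of Rrm2 because it had the smallest p among the members without those letters. Each is the 250 bases before the transcription start, read 5′ to 3′ on the strand of the gene, from RefSeq on GRCm38.p6 (the assembly also called mm10). Capitals mark TTTCCCGC or TTTGGCGC, or their short forms TTCCCGC or TTGGCGC, on either strand. The windows are chr8:75109259-75109508 on the plus strand for Mcm5, chr1:128359706-128359955 on the minus strand for Mcm6, chr5:138171884-138172133 on the minus strand for Mcm7 (the first of its 2 windows) and chr12:24708004-24708253 on the plus strand for Rrm2, which holds none of the letters.
Mcm5: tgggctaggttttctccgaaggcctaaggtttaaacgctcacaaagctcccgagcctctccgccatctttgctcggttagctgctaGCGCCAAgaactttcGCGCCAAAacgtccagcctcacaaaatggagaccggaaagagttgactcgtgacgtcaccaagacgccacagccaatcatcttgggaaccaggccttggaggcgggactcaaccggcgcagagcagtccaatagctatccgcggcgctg
Mcm6: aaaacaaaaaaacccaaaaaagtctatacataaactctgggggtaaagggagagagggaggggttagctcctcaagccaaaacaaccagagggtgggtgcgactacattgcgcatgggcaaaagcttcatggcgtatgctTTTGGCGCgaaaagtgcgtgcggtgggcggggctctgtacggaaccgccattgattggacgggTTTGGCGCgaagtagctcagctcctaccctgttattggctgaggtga
Mcm7: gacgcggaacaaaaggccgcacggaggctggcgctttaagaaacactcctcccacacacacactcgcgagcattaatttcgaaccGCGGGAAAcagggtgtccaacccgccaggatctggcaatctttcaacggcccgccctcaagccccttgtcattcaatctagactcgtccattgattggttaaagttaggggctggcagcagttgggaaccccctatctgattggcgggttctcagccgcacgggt
Rrm2: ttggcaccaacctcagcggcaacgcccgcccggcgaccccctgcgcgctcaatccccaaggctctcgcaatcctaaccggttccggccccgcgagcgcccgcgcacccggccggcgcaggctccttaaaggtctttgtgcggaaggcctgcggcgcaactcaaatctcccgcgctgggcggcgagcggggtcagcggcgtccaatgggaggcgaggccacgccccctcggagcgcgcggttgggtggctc

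Of the 36 members, 30 had a promoter in the RefSeq table, which reaches from 250 bases before the start to 50 after it. Counting a gene once if any of its windows held the letters, TTTCCCGC or TTTGGCGC was found in 10 of the 30 (33.3%) and in 3.22% of the 10754 tested genes with a promoter. The short forms, which lie within those letters, were found in 18 of 30 (60.0%) against 13.5%. CCAAT, the box read by NF-Y, was in 19 of 30 (63.3%) against 42.8%, and TTTGAA or TTCGAA, the letters of the cell cycle homology region of G2 and M phase genes, in 6 of 30, against 16.6%. In Mcm6 the E2F letters occurred at 2 places, starting 110 and 47 bases before the start. The 10 members with the longer letters had a median log2 fold change of 1.05, and the 20 without them 1.22. A match describes letters in a window and not a bound site.

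DNA replication transcripts were about 2-fold as abundant in knockout as in wild-type mucosa. Summed over the 36 members, they came to 441 and 393 CPM in libraries 1 and 2 of wild-type mucosa and to 875 and 840 CPM in knockout 1 and 2. All 36 were higher in knockout in the fit across all genes, and 35 did not overlap between the genotypes, where 26.3% of all genes tested were higher and 23.8% lower without overlap. The median log2 fold change was 1.18, against -0.0017 over all genes tested, and 25 members were above 1, as were 8.13% of all genes. The exception to the separation was Gins3. CPM are relative to the other RNA of a library, so a larger share of RNA from dividing cells need not mean more dividing cells. In bulk tissue, such a larger share and more of these transcripts per dividing cell cannot be told apart.

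None of the members passed an adjusted p of 0.05 in edgeR's quasi-likelihood test, where the background was 0.0% of genes in either direction, and none by limma. The adjusted p of the members ran from 0.144 for Rrm2 to 0.953 for Gins3. At an unadjusted p under 0.05, 33 members were higher and 0 lower, against a background of 9.22% of genes higher and 6.68% lower. By DESeq2 27 members passed an adjusted p of 0.05, all of them higher, against 4.14% of genes higher and 3.43% lower. Without knockout 2, so with knockout 1 as the only knockout library, 9 members (Mcm3, Mcm4, Mcm5, Mcm6, Mcm7, Fen1, Rrm2, Tyms and Uhrf1) passed by edgeR (2.15% of genes), and without any other single library 0 passed. Without knockout 1, 28 members were higher at an unadjusted p under 0.05 (5.91% of genes in that fit), 35 did not overlap (33.1% of genes) and the median was 1.05. Knockout 2, which remains in that fit, also held squamous transcripts at a lower level than knockout 1.

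**Figure D1:**
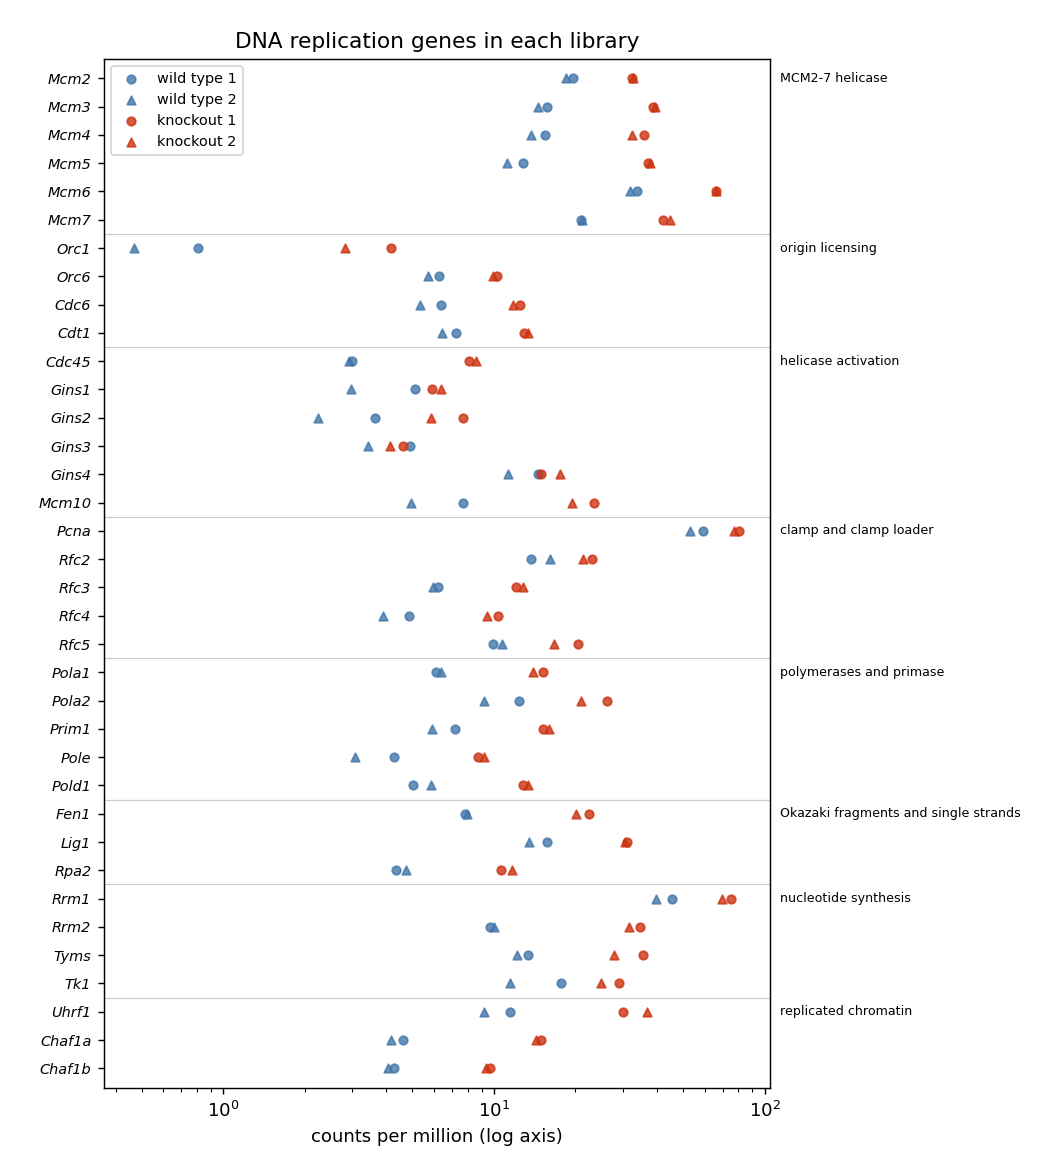
CPM (log axis) of each of the 36 DNA replication genes in the 2 wild-type (blue) and 2 knockout (red) libraries, ordered by role, 1 symbol per library. The red symbols lie to the right of the blue ones for every gene except Gins3, where 4.88 CPM in wild type 1 exceeds both knockout libraries.

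The 6 subunits of the MCM2-7 helicase, the ring that unwinds DNA ahead of the fork, lay closest between libraries of the same genotype, with a median absolute difference of 0.018 log2 units between the knockout libraries. Mcm5 (ENSMUSG00000005410.6, chr8:75109569-75128439, plus strand) was at 12.8 and 11.1 CPM in libraries 1 and 2 of wild-type mucosa and at 37.1 and 37.6 CPM in knockout 1 and 2, a log2 fold change of 1.64 ± 0.14 (SE, n = 2 per group). Mcm3 was at 15.7 and 14.6 CPM versus 38.9 and 39.4 CPM. Mcm4 was at 15.5 and 13.7 CPM versus 35.8 and 32.4 CPM. In each of these 3 both knockout libraries were more than 2-fold above both wild-type libraries.
Mcm6 (ENSMUSG00000026355.11, chr1:128331590-128359664, minus strand) was at 33.8 and 31.9 CPM in wild-type mucosa and at 66.2 and 66.0 CPM in knockout, a difference of 1.008 ± 0.12 on the log2 scale. Mcm7, whose exons also overlap Cops6 and Ap4m1 on the other strand, was at 20.9 and 21.1 CPM versus 42.2 and 44.6 CPM. Mcm2, the subunit that also binds histones, had the smallest difference of the 6, with 19.6 and 18.4 CPM in wild-type mucosa and 32.4 and 32.7 CPM in knockout (0.77 ± 0.12). The group summed to 252.5 and 252.7 CPM in the 2 knockout libraries and to 118 and 111 CPM in wild type. All 6 passed by DESeq2.

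Levels of different subunits can be set side by side only per transcript length, here the length of the principal coding transcript. Over that length, the wild-type order from high to low was Mcm6, Mcm7, Mcm2, Mcm3, Mcm4 and Mcm5 in both libraries, with Mcm6 at 11.63 and 10.95 and Mcm5 at 3.78 and 3.30 CPM per kilobase. In knockout Mcm2 was the lowest in knockout 1, at 9.60 CPM per kilobase, and Mcm4 in knockout 2, at 9.03, while Mcm5 stood at 10.98 and 11.11. The ratio of Mcm2 to Mcm5 went from 1.54 and 1.65 in wild type to 0.875 and 0.873 in knockout. The highest subunit was 3.08 and 3.32 times the lowest in wild-type mucosa and 2.37 and 2.51 times in knockout. Over the length of all annotated exons instead, it was 2.57 and 2.58 times in wild-type mucosa and 3.05 and 3.01 times in knockout, so the order and the narrowing depend on the transcript model. On that scale Mcm2 was the lowest of the 6 in all 4 libraries, at 2.82 and 2.64 CPM per kilobase in wild type beside 3.20 and 2.79 for Mcm5. The factor by which the Mcm2 to Mcm5 ratio differed between libraries does not depend on it, because each length cancels.

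**Figure D2:**
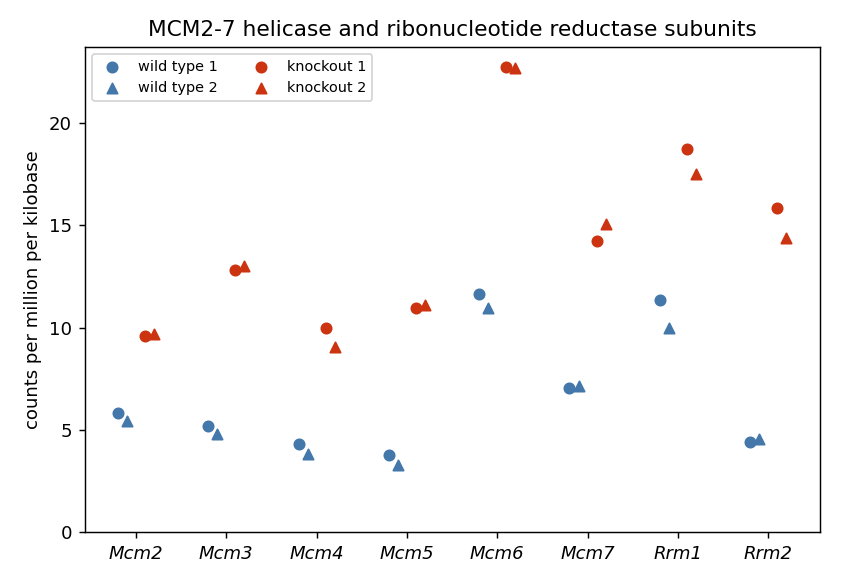
CPM per kilobase of the principal coding transcript for the 6 MCM2-7 subunits and the 2 ribonucleotide reductase subunits among the members, 1 symbol per library. Knockout symbols (red) are above wild-type symbols (blue) for all 8 genes, and Rrm2 lies below Rrm1 by more than 2-fold in wild type and at 15.9 and 14.4 against 18.7 and 17.5 in knockout.

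Licensing factors, which load the helicase, were all higher in knockout. Orc1, an ATPase subunit of ORC whose amount varies over the cell cycle, had the largest fold change of the 36 and the fewest counts. It had 20 and 9 counts in wild-type mucosa and 93 and 68 in knockout (0.807 and 0.469 CPM versus 4.17 and 2.81 CPM), a log2 fold change of 2.43 ± 0.57. The knockout libraries were apart from the wild-type ones but also 0.57 log2 units apart from each other. Cdc6 was at 6.37 and 5.31 CPM in wild-type mucosa and 12.5 and 11.8 CPM in knockout. Its partner in loading, Cdt1, was at 7.22 and 6.41 CPM versus 13.0 and 13.3 CPM. Orc6, the smallest ORC subunit, was at 6.29 and 5.73 CPM versus 10.3 and 9.91 CPM and did not pass by DESeq2 (adjusted p = 0.229). Geminin (Gmnn), the protein that binds and blocks Cdt1, was lower, at 25.2 and 23.8 CPM in wild-type mucosa and 15.7 and 18.6 CPM in knockout (-0.51 ± 0.15, edgeR adjusted p = 0.263). The ratio of Cdt1 to Gmnn per kilobase was 0.147 and 0.139 in wild-type mucosa and 0.425 and 0.369 in knockout.

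The factors that switch the loaded helicase on were the least uniform. Mcm10, needed to start unwinding, was at 7.67 and 4.95 CPM in wild-type mucosa and 23.4 and 19.5 CPM in knockout (1.76 ± 0.28). Cdc45, a helicase cofactor, was at 2.99 and 2.92 CPM versus 8.07 and 8.59 CPM (1.495 ± 0.26). Both passed by DESeq2, and neither overlapped between genotypes.
The 4 subunits of GINS, which bind the helicase as one complex, had unlike fold changes. Gins2 was at 3.63 and 2.24 CPM in wild-type mucosa and 7.67 and 5.86 CPM in knockout, but 2758 bases of its exons are shared with Gse1 on the opposite strand, and the counting is not known to use strand. Gins1 was at 5.12 and 2.97 CPM versus 5.92 and 6.36 CPM. Gins4 was at 14.6 and 11.3 CPM versus 14.9 and 17.5 CPM. For both, wild type 1 was below the knockout values, for Gins4 just below that of knockout 1, and wild type 2 was further below. Gins3 was at 4.88 and 3.44 CPM versus 4.62 and 4.13 CPM, a log2 fold change of 0.07 ± 0.36 that was negative without wild type 2 (-0.16) and without knockout 1 (-0.05). For Gins1, Gins3 and Gins4 the difference between the genotypes was smaller than that between the 2 wild-type libraries, and these were the 3 members with an unadjusted p above 0.05.

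Pcna, the sliding clamp that tethers polymerases to DNA and also serves in repair, was the most abundant member per kilobase in every library and had the smallest fold change outside the GINS subunits. It was at 59.1 and 53.0 CPM in wild-type mucosa and 80.7 and 77.0 CPM in knockout, a log2 fold change of 0.49 ± 0.14 (edgeR adjusted p = 0.2497, DESeq2 adjusted p = 0.128). Its 2 pseudogenes in the table held at most 2.72 estimated counts in a library. The 4 small subunits of the clamp loader had larger fold changes, from 0.58 for Rfc2 to 1.17 for Rfc4, none of them tested against that of the clamp. Rfc3 was at 6.21 and 5.94 CPM versus 12.1 and 12.8 CPM. Rfc4 was at 4.84 and 3.91 CPM versus 10.4 and 9.42 CPM. Rfc5 was at 9.92 and 10.7 CPM versus 20.5 and 16.6 CPM. All 4 were above wild type in both knockout libraries. Rfc2 was at 13.8 and 16.1 CPM versus 23.1 and 21.4 CPM (0.58 ± 0.16). The large subunit Rfc1, not a member, had a log2 fold change of 0.61 ± 0.15.

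Polymerase and primase genes were close to each other in size of difference. Pola1, the catalytic subunit of polymerase alpha, was at 6.13 and 6.35 CPM versus 15.2 and 14 CPM (1.22 ± 0.17). Its B subunit, Pola2, was at 12.4 and 9.17 CPM versus 26.3 and 21.02 CPM (1.13 ± 0.23). All 4 wild-type values lay below the knockout values of the same gene. Prim1, the primase that lays down the RNA primer, was at 7.18 and 5.89 CPM in wild-type mucosa and 15.2 and 16.0 CPM in knockout (1.25 ± 0.19). Pole, the catalytic subunit of the leading-strand polymerase, was at 4.28 and 3.07 CPM versus 8.70 and 9.17 CPM. Pold1, that of the lagging-strand polymerase, was at 5.04 and 5.83 CPM versus 12.8 and 13.4 CPM. All 5 passed by DESeq2 and none overlapped between genotypes.
The members that complete Okazaki fragments followed. Fen1, the flap nuclease, was at 7.83 and 7.97 CPM in wild-type mucosa and 22.6 and 20.03 CPM in knockout (1.43 ± 0.16), with 2039 exon bases shared with genes on the opposite strand. Lig1, the ligase that seals the nick, was at 15.7 and 13.4 CPM versus 30.9 and 30.5 CPM. Rpa2, a subunit of the single-strand binding protein RPA, was at 4.36 and 4.74 CPM versus 10.6 and 11.6 CPM (1.29 ± 0.21), while the partner subunit Rpa1, not a member, was at 31.7 and 31.4 CPM versus 41.1 and 42.4 CPM (0.40 ± 0.12).

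Ribonucleotide reductase makes deoxynucleotides from ribonucleotides with a large subunit, Rrm1, and a small one that is either Rrm2, made in S phase, or Rrm2b, a p53 target used outside S phase and in repair. Rrm2 (ENSMUSG00000020649.11, chr12:24708241-24714146, plus strand) was at 9.68 and 10.001 CPM in wild-type mucosa and 34.8 and 31.6 CPM in knockout, a log2 fold change of 1.75 ± 0.14 (edgeR adjusted p = 0.144, DESeq2 adjusted p = 5.99e-09). Both knockout libraries were more than 3-fold above both wild-type ones, and the p was the smallest of the members. Rrm1 was at 45.3 and 39.8 CPM versus 74.9 and 69.9 CPM (0.77 ± 0.14).
Rrm2b, not a member, was lower, at 24.4 and 24.4 CPM versus 9.41 and 13.8 CPM (-1.07 ± 0.23, edgeR adjusted p = 0.226, DESeq2 adjusted p = 0.0206). The ratio of Rrm2 to Rrm2b per kilobase was 0.824 and 0.853 in wild-type mucosa and 7.69 and 4.77 in knockout. Over the length of all annotated exons, Rrm2 was above Rrm2b in wild type too. It was at 3.49 and 3.61 CPM per kilobase there, against 2.68 and 2.67 for Rrm2b. The ratio of Rrm1 to Rrm2 per kilobase was 2.57 and 2.18 in wild-type mucosa and 1.18 and 1.22 in knockout. Over the length of all annotated exons it was 1.18 and 1.001 against 0.542 and 0.557. Both ratios moved the same way in both knockout libraries. Thymidylate synthase, Tyms, was at 13.3 and 12.1 CPM versus 35.6 and 27.8 CPM (1.32 ± 0.18). The salvage enzyme thymidine kinase, Tk1, was at 17.7 and 11.5 CPM versus 29.0 and 24.9 CPM (0.88 ± 0.26).

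The 3 members that rebuild chromatin had the highest median of the role groups, 1.69. Chaf1a, the large subunit of the histone chaperone CAF-1, was at 4.60 and 4.17 CPM in wild-type mucosa and 14.9 and 14.2 CPM in knockout (1.73 ± 0.19). Of its 8854 exon bases, 4648 are shared with Ubxn6 on the opposite strand. Chaf1b, the CAF-1 partner of Chaf1a, was at 4.28 and 4.06 CPM versus 9.64 and 9.37 CPM (1.19 ± 0.23). Uhrf1, which guides the methyltransferase Dnmt1 to newly copied DNA, was at 11.5 and 9.17 CPM versus 29.9 and 36.6 CPM (1.69 ± 0.20). All 3 passed by DESeq2. Dnmt1 itself, not a member, had a log2 fold change of 0.72 ± 0.14.

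The 2 knockout libraries, which differed so widely in chief cell markers, were close in replication genes. The absolute difference between them had a median of 0.10 log2 units over the members and 0.34 over all genes tested, and 29 of 36 members differed by under 0.25 log2 units, as did 40.9% of all genes. Between the wild-type libraries the medians were 0.18 and 0.25, and 23 of 36 members were within 0.25, against 50.8%. In 28 of 36 members wild type 1 was above wild type 2. The median of wild type 1 minus wild type 2 was 0.16 log2 units over the members and 0.08 over all genes tested. Between the knockout libraries, the median of knockout 1 minus knockout 2 was 0.06 over the members and -0.01 over all genes tested. Of the wild-type libraries, wild type 2 had more fibroblast and muscle, chief cell, and B and plasma cell RNA. Knockout 2 likewise had more of each than knockout 1. The part of such RNA in the wild-type difference was not tested. In 33 of 36 members the difference between genotypes exceeded both differences within a genotype, as it did in 37.2% of all genes. Against the wild-type mean, the median of the members was 1.22 in knockout 1 and 1.10 in knockout 2, values that share their controls.

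**Figure D3:**
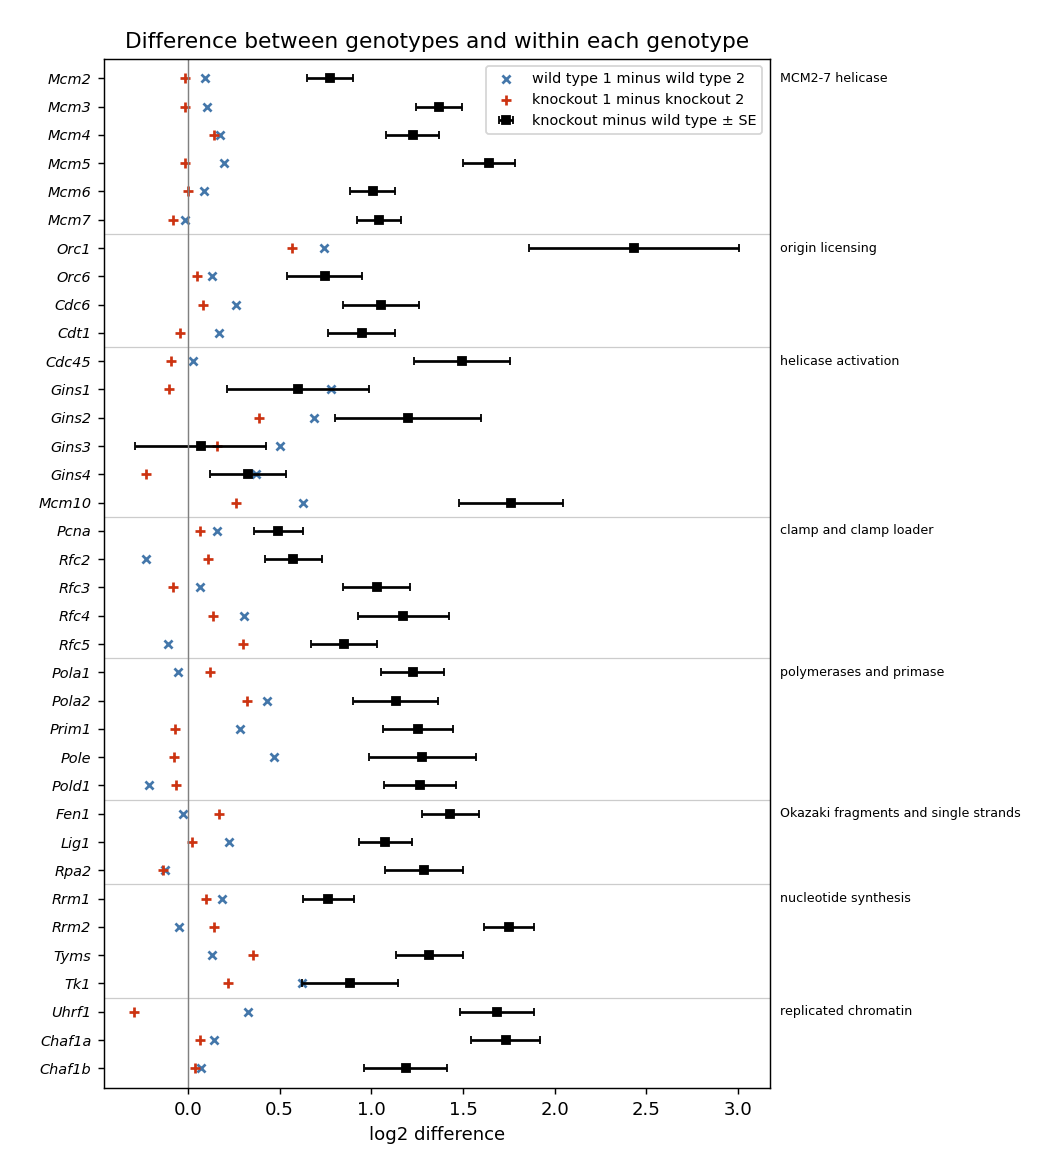
Log2 difference for each member between knockout and wild type (black squares, bars are the SE of the edgeR fit, n = 2 per group), between the 2 wild-type libraries (blue crosses) and between the 2 knockout libraries (red plus signs). The crosses and plus signs lie between -0.29 and 0.78, and the squares exceed both in size for 33 of the 36 genes.

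Markers of other cell types and mitochondrial transcripts were read beside these results. Myeloid markers, 9 genes, summed to 16.2 and 53.7 CPM in wild-type mucosa and 27.9 and 31.3 CPM in knockout. The 9 T and NK cell markers summed to 1.90 and 3.59 CPM in wild-type mucosa and 1.26 and 2.27 CPM in knockout, and the 7 B and plasma cell markers to 3.67 and 51.3 CPM versus 7.89 and 21.1 CPM. The B cell marker Ms4a1 had at most 2 counts in a library. The 11 squamous forestomach markers summed to 1.13 and 0.781 CPM in wild-type mucosa and to 198 and 14.1 CPM in knockout 1 and 2, with Trp63, Krtdap and Sprr3 at 0 in all 4 libraries. The 5 mucous neck markers summed to 1250 and 886 CPM versus 12552 and 8617 CPM. Most of this was Tff2, at 1022 and 679 CPM versus 11709 and 7314 CPM. All 5 were higher in the fit, 4 of them without overlap, as were 26.3% of all genes tested. A4gnt overlapped, at 70.3 and 82.8 CPM versus 56.7 and 283 CPM. The 8 intestinal epithelium markers summed to 485 and 272 CPM versus 2205 and 682 CPM. Of the 6 tested, 5 were higher without overlap (background 26.3%). Cdx1 and Cdx2 were at or under 9 counts in every library. The 8 surface pit cell markers summed to 115405 and 77284 CPM versus 65279 and 52089 CPM. Of these 8, 5 were lower and 1 higher without overlap (background 23.8% lower and 26.3% higher). The 13 mitochondrial transcripts summed to 105874 and 95064 CPM versus 54386 and 48475 CPM. The part of antral, squamous, mucous neck, intestinal, surface pit, parietal, chief and mitochondrial RNA in the replication difference was not tested.

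Other genes of the pathway were set beside the members, and none of them passed by edgeR. Of 36 other replisome subunits, 32 were higher, with a median of 0.55. At an unadjusted p under 0.05, 17 were higher (background 9.22%), and 7 passed by DESeq2 (background 4.14%). Wdhd1, which couples helicase and polymerase alpha, was at 2.66 and 2.50 CPM in wild-type mucosa and 11.4 and 8.71 CPM in knockout, Pclaf, a clamp-binding protein, at 11.7 and 8.96 CPM versus 38.0 and 28.4 CPM, and the checkpoint mediator Clspn at 4.72 and 4.27 CPM versus 11.8 and 12.1 CPM. ORC subunits other than Orc1 and Orc6 showed little of this. Orc2, Orc4 and Orc5 overlapped between genotypes, and Orc3 was at 24.3 and 21.98 CPM versus 17.7 and 19.7 CPM (-0.31 ± 0.14).

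Of 13 genes controlling origin firing, 11 were higher (median 0.94). At an unadjusted p under 0.05, 8 were higher and 1, Gmnn, lower (background 9.22% and 6.68%). Cyclin A2 (Ccna2) was at 27.4 and 20.7 CPM versus 64.0 and 52.4 CPM, Cdk1 at 20.1 and 14.3 CPM versus 41.1 and 37.8 CPM, and Topbp1, a scaffold for firing, at 30.7 and 27.5 CPM versus 46.3 and 46.1 CPM. Of 12 other genes of chromatin replication, 11 were higher and 9 at an unadjusted p under 0.05 (background 9.22%, median 0.70). They included Hells, a remodeller, at 8.03 and 7.50 CPM versus 21.8 and 21.8 CPM, Asf1b, a histone chaperone, at 4.56 and 3.54 CPM versus 14.3 and 12.2 CPM, and Esco2, a cohesin acetyltransferase, at 8.55 and 6.46 CPM versus 20.6 and 20.2 CPM. Asf1a, the paralog of Asf1b, overlapped between genotypes (-0.15 ± 0.18, and 0.15 with total-count scaling).

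Nucleotide synthesis outside the members was mixed. Of 28 genes, 16 were higher and 12 lower in the fit, with 10 higher and 3 lower at an unadjusted p under 0.05 (background 9.22% and 6.68%) and a median of 0.21. Higher were Dut, which removes dUTP, at 8.96 and 7.29 CPM versus 19.3 and 17.3 CPM, the deaminase Dctd at 3.07 and 1.51 CPM versus 7.44 and 7.56 CPM, and the guanine nucleotide enzyme Impdh2 at 52.4 and 50.4 CPM versus 84.6 and 83.0 CPM. Lower, besides Rrm2b, were 2 enzymes of purine synthesis, Ppat at 36.9 and 39.5 CPM versus 16.8 and 25.1 CPM and Paics at 126 and 138 CPM versus 62.0 and 95.02 CPM.

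Of 18 genes of the E2F and Rb family, which switch replication genes on and off, 12 were higher (median 0.49). At an unadjusted p under 0.05, 9 were higher and 0 lower (background 9.22% and 6.68%). E2f2 was at 14.5 and 7.61 CPM in wild-type mucosa and 45.4 and 37.6 CPM in knockout, E2f8 at 8.07 and 7.34 CPM versus 21.5 and 21.5 CPM, and the partner Tfdp1 at 45.1 and 37.9 CPM versus 68.5 and 62.8 CPM. Tfdp2 was at 78.6 and 103 CPM versus 35.9 and 62.9 CPM, the pocket protein gene Rbl2 at 62.4 and 74.3 CPM versus 33.8 and 53.4 CPM, and Lin52 at 9.84 and 12.6 CPM versus 5.60 and 9.17 CPM. The 24 mitosis genes were all higher, 23 at an unadjusted p under 0.05 (background 9.22%). Their median was 1.11 beside 1.18 for the replication genes. The proliferation marker Mki67 was at 89.6 and 60.0 CPM versus 152 and 124 CPM (0.88 ± 0.27). Kif11, a spindle motor, had a log2 fold change of 1.28 ± 0.16, the checkpoint kinase gene Bub1b 1.25 ± 0.20 and Ube2c, which marks cyclins for destruction, 1.32 ± 0.22, while the mitotic kinase Plk1 was at 0.36 ± 0.18. The summed CPM of the members over that of the mitosis genes was 0.967 and 1.20 in wild-type mucosa and 1.07 and 1.16 in knockout.

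**Figure D4:**
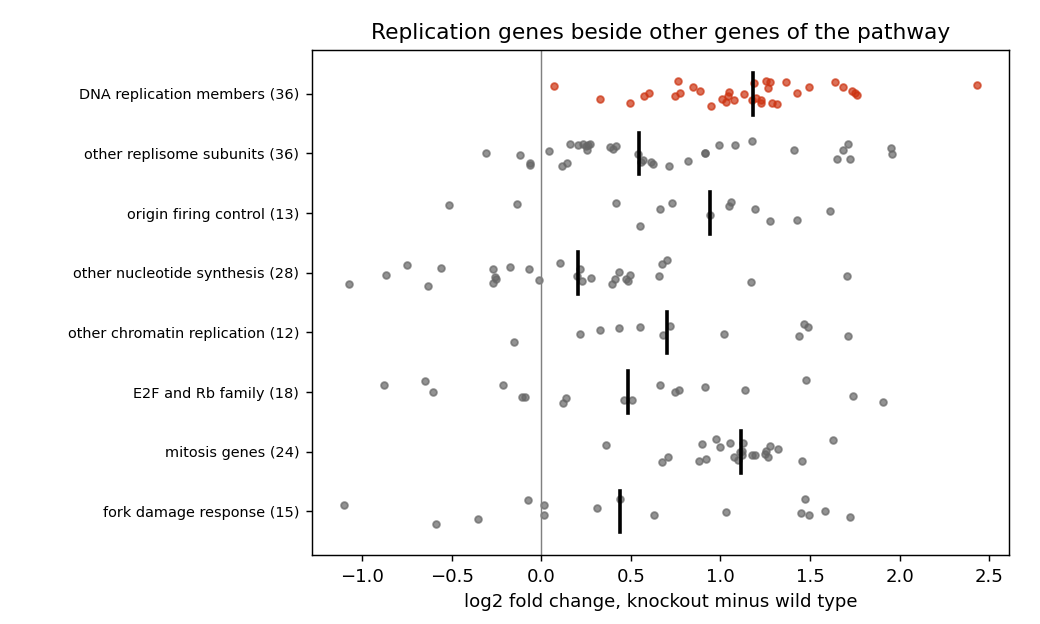
Log2 fold change (knockout minus wild type) of each gene of the 36 replication members (red) and of 7 other lists of the pathway (grey), with the number of genes in brackets and the median of each list as a black bar. The members lie between 0.07 and 2.43 with a median of 1.18, and the other nucleotide synthesis genes spread to both sides of 0.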

How the data were processed

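The authors deposited a table of expected counts per gene (35.0% of nonzero values not whole), which are neither length- nor depth-scaled as far as the values show. How these estimated counts were made before they were deposited by the authors is not stated: aligner, counter, annotation and use of strand are not given in the material used. Per the submitters' processing notes the build was mm10, and per the labels' protocols the libraries were stranded and mRNA-selected. Counts were rounded, and identifiers without version were matched to GENCODE release M21 (34582 of 34866 rows). edgeR 4.0.16 in R 4.3.3 (TMM factors, filterByExpr with a minimum of 10 counts, robust quasi-likelihood test, Benjamini-Hochberg adjustment over 14067 genes) compared 2 knockout with 2 wild-type libraries, with no covariate. The SE is the log2 fold change divided by the square root of F. Differences between libraries used log2 CPM after adding 0.5 counts. DESeq2 1.42.0 and limma 3.58.1 were alternatives. The code was tested on simulated data. With 2 against 2 libraries an exact permutation test cannot give a p below 0.33. Libraries of a genotype were not duplicates (chi-square of 139 and 272 per degree of freedom). Of the 36 members, 13 share exon bases with another gene, and the 23 that share none had a median log2 fold change of 1.19. The fewest counts of a member were 9. Promoters were searched for fixed letters on both strands. Members and lists were chosen with earlier results of these data known. Named were all members, Muc6, Mki67 and, in each other list, the 3 genes of smallest p in each direction without overlap and the gene furthest against the list. The other ORC subunits, Rfc1, Rpa1, Dnmt1 and the single antral markers were named after their values were seen. 1 gene that this rule names is not reported here.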

Additional observations from a re-analysis of the deposited data

How the results depend on the processing

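With 2 libraries per genotype and adjustment over all genes, the count of members past the threshold depended on the tool. By DESeq2 27 members passed, with 571 genes higher and 473 lower in all. Without a filter on low counts, 5 genes were higher and 4 lower in all, none of them a member. Leaving out 1 library in turn gave 0 to 9 members, 0 to 302 genes higher and 0 to 442 lower, the upper ends without knockout 2. The cause was not tested. At an unadjusted p under 0.05 the count of members was 25 to 34 (4.18% to 24.7% of genes), and without overlap 35 or 36 (20.5% to 49.95% of genes), over all alternatives. The upper shares are with total counts without scaling factors. The members' median log2 fold change was 1.04 to 1.23 with 1 library left out, lowest without wild type 2, and 1.48 with total counts without scaling factors, an alternative chosen after seeing the data that moves the median of all genes to 0.29. With 1 library left out, Gins3 ran from -0.16 (without wild type 2) to 0.35, and was -0.05 without knockout 1. Asf1a was at 0.15 with total-count scaling. Where 1 library was left out, the lone library of its genotype was assumed to vary like the other 2. The sample number, which the labels do not tie to a shared animal or batch, was also fitted as a replicate block. It gave 33 members at an unadjusted p under 0.05, 0 past the adjusted threshold and a median of 1.18. Same-numbered libraries deviated together from their group means (r = 0.49 across 14067 genes, which are not independent replicates). Orc1 has the least depth, and its fold change the largest error.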

Other observations

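Genes of the response to stalled or damaged forks differed in direction. Of 15, 11 were higher in knockout, with a median log2 fold change of 0.44. At an unadjusted p under 0.05, 6 were higher, against a background of 9.22%. By edgeR 0 passed an adjusted p of 0.05, and by DESeq2 5 passed (background 4.14%). Summed over the list, CPM was 276 and 210 in wild-type mucosa and 265 and 189 in knockout. Brca1, a mediator of recombination repair, was at 6.41 and 5.68 CPM in wild-type mucosa and 16.8 and 19.5 CPM in knockout. The ubiquitin ligase gene Rad18 was at 3.47 and 3.13 CPM versus 9.82 and 8.26 CPM. The checkpoint kinase Atr overlapped between genotypes, at 18.5 and 18.8 CPM versus 16.0 and 19.4 CPM, whereas its effector kinase Chek1 was at 1.90 and 2.55 CPM versus 6.23 and 6.11 CPM. The helicase gene Blm was the furthest in the other direction, at 9.96 and 24.8 CPM versus 6.64 and 9.54 CPM (-1.10 ± 0.52), with the wild-type libraries more than 2-fold apart. Atr and Chek1 were chosen after their values were seen.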
